A study of Mus musculus with 10 samples.

Results

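Wild-type mouse macrophages that had been held for 1 h at a height of 3 µm were compared with wild-type macrophages that had not been confined. The comparison used 5 of the 10 libraries of the series, 3 confined (replicates 2, 3 and 6) and 2 unconfined (replicates 1 and 3), chosen by genotype and treatment label and not by any measured value. The cells were bone marrow-derived macrophages (BMDM), grown for 7 days in RPMI medium with 20 ng/mL of recombinant macrophage colony-stimulating factor. Confined cells were kept under a ceiling of silicone (PDMS) micropillars, which flattens each cell vertically. The labels call the other wild-type group Control and do not say whether those cells were handled under an unconfining pillar device. The remaining 5 libraries came from macrophages lacking WASp (WKO), an activator of branched actin assembly in blood cells, 3 confined and 2 unconfined. Nothing in the labels says whether libraries of a group came from separate mice or cultures, so p-values measure the spread between these libraries, which may be technical.

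Macrophages sense damage, microbes and physical deformation, and answer within minutes by transcribing immediate early genes, whose promoters are ready to fire without new protein synthesis. These genes encode short-lived transcription factors of the AP-1, EGR and NR4A families, the first inflammatory cytokines and chemokines, and inhibitors that shut the same pathways down. The inducers usually act through MAP kinases, calcium and cyclic AMP signalling and NF-κB, a dimeric factor held in the cytoplasm by IκB proteins. Vertical confinement to a few micrometres is known to deform the nucleus and can rupture its envelope.

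Wild-type libraries held 13295701 to 19216408 reads. The values are normalized read counts, the reads of a gene divided by 1 size factor per library, and 3 reads correspond to 2.41 to 3.52 normalized counts in these libraries. Genes with a mean of at least 10 over the 5 wild-type libraries were tested, 12213 in all. A gene is said to have risen or fallen where its adjusted p (limma, Benjamini-Hochberg over these genes) was under 0.05. Log2 differences are confined minus unconfined on the log2(normalized count + 1) scale, on which low genes appear to change less than they do. Values of single libraries are given in the order of replicates 1 and 3 for unconfined and 2, 3 and 6 for confined cells. The macrophage genes chosen as a check of the label summed to 283917 to 305056 in unconfined and 285107 to 308900 in confined libraries, and none of the 10 passed.

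After 1 h, 111 genes had risen (0.909% of those tested) and 33 had fallen (0.27%), 144 in all (1.18%), and 1496 reached an unadjusted p under 0.05. The risen genes were led by chemokines for neutrophils, by Tnf and by the transcription factors and inhibitors of the immediate early response. The fallen genes were fewer and changed less. Of the 111, 97 rose at least 2-fold and 51 at least 4-fold, whereas 14 of the 33 fell by 2-fold or more. The range for the risen genes ran from a log2 difference of 0.50 for Hmox1 to 8.48 for Cxcl1, and for the fallen genes from -0.65 for Rai1 to -2.27 for Bbs10, apart from Prg2, which was 0 in every confined library. The median log2 difference over all 12213 genes was -0.00, with 6057 genes higher and 6156 lower. Counts of risen, fallen, higher or lower genes in the lists below are to be read against these shares over all genes.

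The number of calls depended on which libraries estimated the spread. Spread was shared with the WKO libraries, whose confined group was the most variable (median SD of log2 values 0.260, against 0.149 in confined and 0.157 in unconfined wild-type libraries). With only the 5 wild-type libraries in the fit, 513 genes passed (4.2%), 393 higher (3.22%) and 120 lower (0.983%), and all 144 were among them. Leaving out wild-type unconfined replicate 1 or 3 left 22 and 33 calls, leaving out confined replicate 2, 3 or 6 left 60, 65 and 54, and leaving out WKO confined replicate 1, 2 or 5 gave 330, 134 and 400. Without WKO unconfined replicate 1 or 3 the count was 110 and 109. Libraries of the 2 wild-type groups did not overlap at 2265 genes with confined higher (18.5%) and 2129 with confined lower (17.4%). All 144 called genes were among these. The calls and the separation come from the same values, so this is no separate support for the calls.

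The risen genes took up 0.485% and 0.501% of all reads in unconfined libraries and 1.32%, 1.48% and 1.75% in confined ones. The fallen genes took up 0.246% and 0.246%, and then 0.119%, 0.128% and 0.120%. Confined replicate 6 had the highest value of the 3 for 62 of the 111 risen genes, replicate 2 for 25 and replicate 3 for 24. In a bulk library, fewer cells of a type and less RNA per cell cannot be told apart, and the same holds for a gene that rises in some cells or in all.

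**Figure D1:**
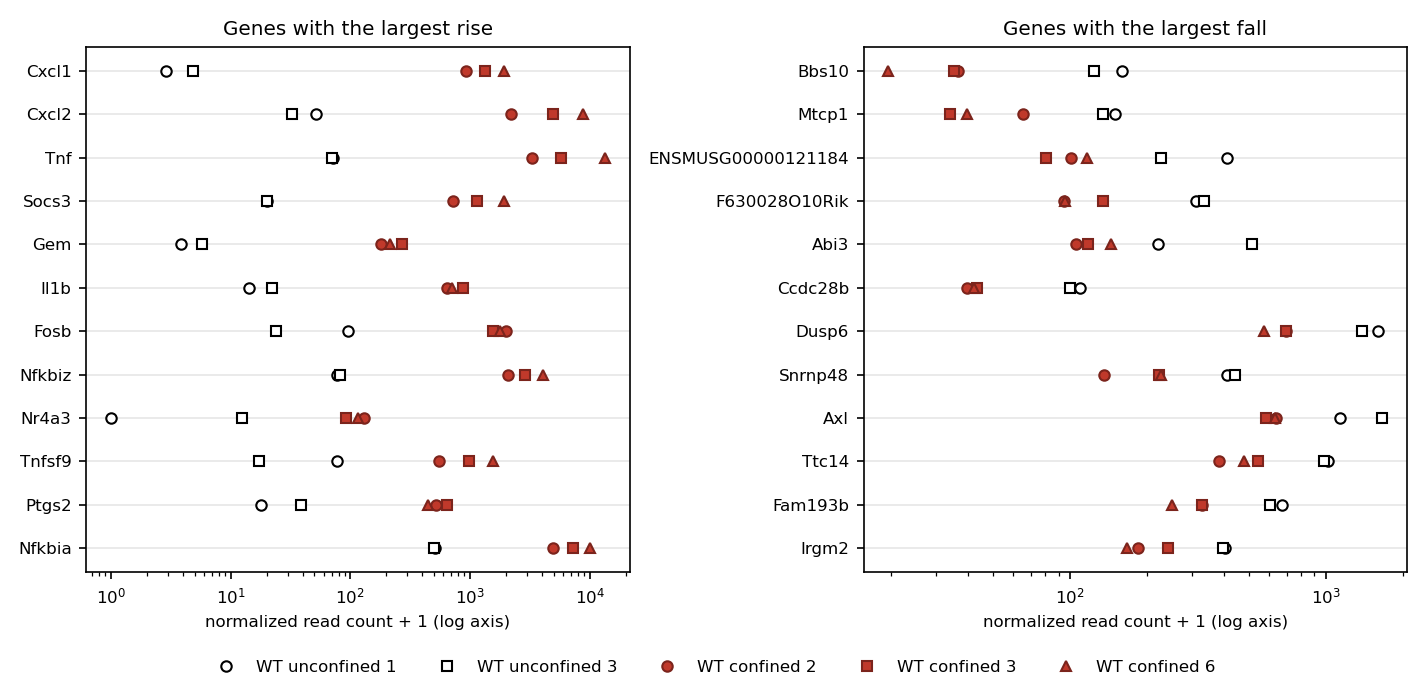
Normalized read count + 1 (log axis) of the 12 genes with the largest rise (left) and the 12 with the largest fall (right) among genes that passed with a mean of at least 50, 1 point per wild-type library; open symbols are unconfined and filled symbols confined libraries. Only genes whose groups did not overlap were eligible, so the confined points lie apart from the unconfined ones in every row. For Cxcl1 they lie at 933 to 1911 against 1.9 and 3.84.

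The chemokines that rose were Cxcl1 and Cxcl2, ligands of the neutrophil receptor Cxcr2. Cxcl1 (chromosome 5, 90891241 to 90893115, GRCm38, GENCODE M21) went from 1.9 and 3.84 to 933, 1336 and 1911. Its log2 difference was 8.48 ± 0.67 (SE, n = 2 and 3, adjusted p = 0.000206). This SE, like those that follow, comes from the limma fit to all 10 libraries and is not the spread of the wild-type libraries alone. The unconfined libraries were at about the 3-read level, far under all confined ones. Cxcl1 reached the mean of 10 needed for testing only through its confined values, so its adjusted p is not read as support. Cxcl2, its neighbour on the chromosome (90903871 to 90905938), stood at 50.3 and 31.7 and then at 2207, 4962 and 8728, with a log2 difference of 6.80 ± 0.71 (adjusted p = 0.0013). Replicate 6 was the highest and replicate 2 the lowest of the confined libraries for both. These were 2 of the 18 chemokine genes tested, and the median of all 18 was 0.32. Cxcl10, a chemokine for T cells induced by interferons and NF-κB, had 6.65 and 20.2 against 129, 89.2 and 174 and missed the threshold (adjusted p = 0.0823, and 0.00345 with wild-type libraries alone). Cxcl3 was under the 3-read level in unconfined libraries, with 0 and 0.96, and above it in all confined ones, with 17.1, 9.38 and 27.3, and did not pass (adjusted p = 0.108). The monocyte chemokine Ccl2 was already abundant, with 4018 and 1947 against 2583, 2848 and 4383, and the groups overlapped, as they did for Ccl3 (1297 and 850.3 against 836, 1143 and 2079) and Ccl4 (718 and 581 against 332, 509 and 1183). Replicate 6 was above both unconfined libraries for Ccl2, Ccl3 and Ccl4.

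Among cytokines, 7 of 20 tested rose and none fell. Tnf (chromosome 17, 35199381 to 35202007), the founding member of its family and a main inflammatory signal of macrophages, went from 71.2 and 69.1 to 3293, 5719 and 13390, a log2 difference of 6.47 ± 0.77 (adjusted p = 0.00252). Replicate 6 was the highest of the confined libraries, and the lowest was still far above both unconfined ones. Il1b (chromosome 2, 129364570 to 129371139), which encodes the precursor of interleukin-1β, rose from 13.3 and 21.1 to 637, 870.4 and 705 (5.36 ± 0.76, adjusted p = 0.0058). Its replicates were closer to each other than those of Tnf. Tnfsf9, the ligand of the costimulatory receptor 4-1BB, had 76.9 and 16.3 and then 549.6, 988 and 1570 (4.69 ± 1.01, adjusted p = 0.0491). The others were Il10, the anti-inflammatory cytokine, at 27.5 and 16.3 against 223, 271 and 254; Osm, encoding oncostatin M of the interleukin-6 family, at 94 and 126 against 662, 617 and 621; the stress cytokine Gdf15 at 752 and 601 against 2422, 3869 and 4065; and the angiogenic factor Vegfa at 1178 and 1634 against 2856, 2569 and 2152. Il10 rose by a log2 difference of 3.49, Osm by 2.53, Gdf15 by 2.32 and Vegfa by 0.85.

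Several cytokines known from longer macrophage activation were at or near the 3-read level. Il6 had at most 2.35 counts in any wild-type library, Il12b at most 4.75 and Ifnb1 at most 1.17, and none was tested. Csf2, not tested either, was 0 in both unconfined libraries and 0, 3.52 and 17.7 in confined ones, so that replicate 6 alone was clearly above that level. Il1a, a sister of Il1b that acts without processing, had 50.3 and 24 against 257, 309.7 and 426; the groups did not overlap, but it passed only with wild-type libraries alone (adjusted p = 0.136 and 0.000485). Il16, which encodes a chemoattractant for CD4 cells, was among the 6 of 20 that were lower, with 204 and 211 against 121, 121 and 112 (adjusted p = 0.0716). The list's median log2 difference was 0.73.

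The place of Tnf in the transcriptome changed accordingly. Counts divided by transcript length rank genes within a library, here over the 12079 tested genes with a gene model. On that per-kilobase scale Tnf ranked 8685 and 8688 in unconfined libraries and 399, 215 and 70 in confined ones. Cxcl2 moved from ranks 9764 and 10402 to 801, 347 and 168, and Nfkbia from 2705 and 2804 to 242, 144 and 98. Cxcl1, at ranks 12034 and 11914 before, reached 1851, 1275 and 861. Lyz2, the macrophage lysozyme gene, kept a rank between 3 and 5 throughout.

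Transcription factors of the immediate early class were prominent among the risen regulators. Of 15 AP-1, ATF and small MAF genes, 6 rose and none fell, with a median log2 difference of 0.77. Fosb, a dimer partner of the JUN proteins, went from 95 and 23 to 2011, 1546 and 1779 (5.20 ± 0.47, adjusted p = 0.000452). Its unconfined libraries lay far apart, while its confined ones were close. Junb, the AP-1 subunit with the highest count after confinement, had 1657 and 2124 and then 8991, 10526 and 11392 (2.45 ± 0.30, adjusted p = 0.00258). Fos was already at 2107 and 2041 in unconfined cells and reached 5607, 5589 and 7257 (1.56 ± 0.33, adjusted p = 0.0455). Fosl2 rose from 740.0 and 1062 to 2931, 2520 and 2217. Maff and Mafk, small MAF proteins that lack an activation domain, rose by log2 differences of 3.15 and 1.58. Jun did not pass (2302 and 2544 against 3206, 3647 and 5994, adjusted p = 0.3), nor did Atf3, whose groups overlapped (5068 and 7430 against 4178, 4402 and 6428).

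All 3 NR4A orphan nuclear receptors rose. Nr4a1 (Nur77) had 123 and 260.1 against 2398, 2272 and 2006, a log2 difference of 3.62 ± 0.39 (adjusted p = 0.00148). Nr4a2 stood at 13.3 and 31.7 and then 317, 192 and 146, and Nr4a3 at 0 and 11.5 and then 129.6, 90.3 and 116. For all 3 NR4A genes, replicate 2 was the highest confined library, unlike for Tnf and the chemokines. Egr1, a zinc-finger factor downstream of ERK, rose from 372 and 336 to 2348, 3038 and 6414 (3.33 ± 0.50, adjusted p = 0.00757), with replicate 6 well above the others. Egr3 had 74.1 and 49.9 against 319, 358 and 492 without passing (adjusted p = 0.144, and 0.00027 with wild-type libraries alone). Egr2 overlapped between groups, at 898 and 1200 against 1168, 1489 and 2280, so that replicate 2 lay between the unconfined libraries. All 8 tested members of the EGR and NR4A list were higher, 4 passed, and the median was 2.95.

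Klf4 had the smallest adjusted p of all genes, 0.000125. This Krüppel-like factor, which takes part in macrophage polarization, went from 101 and 89.3 to 1030, 717 and 1043, a log2 difference of 3.26 ± 0.23. Klf10 (1039 and 1306 against 2550, 2527 and 2736) and Klf11 (129 and 169 against 357, 379 and 431) rose as well. Of 11 Krüppel-like factors 10 were higher, and the median was 0.89. For 9 of them the groups did not overlap, with confined higher, against 18.5% of all tested genes. Among the 8 of 25 other immediate early genes that rose were Gem, a small GTPase that inhibits calcium channels, from 2.85 and 4.8 to 181, 267 and 214; Csrnp1, a nuclear protein induced by AXIN1 signalling, from 98.8 and 85.4 to 817, 1123 and 2186; Ier3, a survival gene, from 87.4 and 75.8 to 434, 633 and 899; and Gadd45b, an activator of p38 signalling, from 393 and 772 to 2149, 2900 and 3496. Their log2 differences were 5.53, 3.76, 2.93 and 2.34. Myc, in the same list, did not pass and overlapped between groups (587 and 644 against 426, 466 and 664).

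NF-κB itself was represented by its inducible subunit and its inhibitors. Nfkbia (chromosome 12, 55489410 to 55492647), which encodes IκBα, rose from 512 and 497 to 4968, 7216 and 10114 (3.82 ± 0.49, adjusted p = 0.00282). Nfkbiz, the atypical nuclear IκBζ that co-activates secondary response genes, rose from 76 and 81.6 to 2062, 2887 and 4042 (5.18 ± 0.63, adjusted p = 0.00258). The groups of both genes were widely separated. Tnfaip3, the ubiquitin-editing enzyme A20, had 1381 and 1332 and then 6015, 6805 and 9574, and Bcl3, another nuclear IκB protein, 188 and 263 and then 647, 738 and 652. Rel, the c-Rel subunit, went from 572 and 549.9 to 2820, 2685 and 2983, close in all 3 confined libraries. The constitutive subunits did not pass, Rela with 1260 and 1558 against 1664, 1520 and 1670 and Nfkb1 with 1512 and 1770 against 1553, 1483 and 1514. In this list 5 of 27 rose, none fell, and the median was 0.39.

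The same run of letters occurs upstream of Cxcl1 and Cxcl2, and 6 promoter stretches are printed. Each shows the 250 bases before the RefSeq transcription start (GRCm38.p6), written 5′ to 3′ on the gene's strand, with capitals marking matches to an NF-κB site, a CArG box (the binding site of SRF), the AP-1 site TGACTCA, the cyclic AMP response element TGACGTCA or the TATA box TATAAA. Both strands were searched, except for the TATA box, where only the gene's strand was. A run of capitals can hold overlapping matches. The stretches were chosen after the values and matches were seen, as the leading chemokines, IκBα, Tnf, the phosphatase gene Dusp1 and the gene with the deepest fall among those not at 0.
Cxcl1, chr5:90890995-90891244, plus strand: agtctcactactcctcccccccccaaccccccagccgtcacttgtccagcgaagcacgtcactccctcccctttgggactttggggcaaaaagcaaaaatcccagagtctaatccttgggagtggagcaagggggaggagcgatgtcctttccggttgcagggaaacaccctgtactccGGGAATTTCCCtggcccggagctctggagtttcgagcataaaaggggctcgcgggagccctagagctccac
Cxcl2, chr5:90903649-90903898, plus strand: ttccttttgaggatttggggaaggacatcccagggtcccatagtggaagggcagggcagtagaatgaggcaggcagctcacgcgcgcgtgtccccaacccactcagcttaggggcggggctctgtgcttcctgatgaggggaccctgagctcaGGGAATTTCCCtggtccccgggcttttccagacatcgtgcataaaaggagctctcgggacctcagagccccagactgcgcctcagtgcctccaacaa
Nfkbia, chr12:55492648-55492897, minus strand: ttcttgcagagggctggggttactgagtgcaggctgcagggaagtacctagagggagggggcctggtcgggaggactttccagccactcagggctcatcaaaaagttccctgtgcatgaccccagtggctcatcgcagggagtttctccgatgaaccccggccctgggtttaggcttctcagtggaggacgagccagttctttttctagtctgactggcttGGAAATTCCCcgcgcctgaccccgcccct
Tnf, chr17:35202008-35202257, minus strand: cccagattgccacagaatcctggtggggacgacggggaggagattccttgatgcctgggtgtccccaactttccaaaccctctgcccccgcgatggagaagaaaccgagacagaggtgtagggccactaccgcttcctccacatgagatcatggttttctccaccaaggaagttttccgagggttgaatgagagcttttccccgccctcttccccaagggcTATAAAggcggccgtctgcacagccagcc
Dusp1, chr17:26508473-26508722, minus strand: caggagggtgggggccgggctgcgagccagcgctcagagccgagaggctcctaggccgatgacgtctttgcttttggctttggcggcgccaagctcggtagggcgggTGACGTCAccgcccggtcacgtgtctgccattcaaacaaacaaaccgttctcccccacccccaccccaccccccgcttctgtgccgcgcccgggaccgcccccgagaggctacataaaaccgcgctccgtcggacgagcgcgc
Bbs10, chr10:111298429-111298678, plus strand: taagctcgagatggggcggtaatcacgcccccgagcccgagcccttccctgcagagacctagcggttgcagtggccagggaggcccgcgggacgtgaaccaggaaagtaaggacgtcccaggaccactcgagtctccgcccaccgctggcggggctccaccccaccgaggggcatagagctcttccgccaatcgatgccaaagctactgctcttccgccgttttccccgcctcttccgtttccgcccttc

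Cxcl1 and Cxcl2 carried the same run of capitals, which holds 2 overlapping NF-κB matches, 1 on each strand. Nfkbia had an NF-κB match, Dusp1 a cyclic AMP response element and Bbs10 no match, and Tnf had only a TATA box in this window. Of the 72 risen genes with a single RefSeq window, 9 held an NF-κB match (12.5%), against 4.29% of the 7390 windows of tested genes, 3.70% of all 22862 windows in the table and 0 of 20 windows of fallen genes. The 9 included Fos, Fosb, Fosl2, Ier3, Rel and Tlr2. The cyclic AMP response element was found in 5 of 72 (6.94%), among them Btg2, Dusp1 and Ppp1r15a, against 2.88% of tested and 1.61% of all windows. A TATA box was in 7 of 72 (9.72%), against 3.76% of tested and 8.68% of all windows. The AP-1 site was in 1 of 72 (1.39%), against 2.94% and 4.47%, and the CArG box in 2 of 72 (2.78%), against 1.08% and 1.38%. Among fallen genes 1 of 20 windows held a TATA box (5%) and none held the other motifs. A match is a description of these letters and not a site shown to be used.

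Regulators of cytokine mRNA decay rose as well, including Arid5a, which opposes decay. Of 17 regulators of cytokine mRNA decay, 6 rose and all 17 were higher, with a median of 0.80. Zc3h12a, the ribonuclease Regnase-1 that cuts Il6 and other cytokine transcripts, went from 191 and 218 to 1613, 1653 and 1685 (3.01 ± 0.30, adjusted p = 0.000973). Its confined libraries lay close to each other. Zfp36, encoding tristetraprolin, which binds AU-rich elements of Tnf mRNA, had 2401 and 2378 and then 6835, 9422 and 15691 (2.07 ± 0.38, adjusted p = 0.0232), with replicate 6 highest, as for Tnf. Arid5a, which stabilizes Il6 mRNA, rose from 122 and 96 to 415, 304 and 399. The antiproliferative genes Btg2, Tob1 and Tob2, which recruit deadenylases, rose by log2 differences of 2.08, 1.41 and 0.98.

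Inhibitors of signalling also changed. MAP kinase phosphatases switch off ERK, JNK and p38, and 3 of the 19 genes in this list rose while 1 fell. Dusp1, which acts in the nucleus on p38 and JNK, had 1666 and 1534 against 5091, 6370 and 11783 (2.18 ± 0.42, adjusted p = 0.0286). Dusp2 went from 40.8 and 87.3 to 529, 995 and 1144, and Dusp5, specific for ERK, from 231 and 373 to 1717, 1683 and 2012. Dusp6, the cytoplasmic ERK phosphatase, went the other way, from 1590 and 1379 to 698, 697 and 571 (-1.18 ± 0.25, adjusted p = 0.0472). Socs3, the inhibitor of signalling by interleukin-6 family receptors, was the only one of 8 SOCS genes to pass, from 19 and 19.2 to 716, 1136 and 1915 (5.85 ± 0.84, adjusted p = 0.00585). Pim1 and Pim3, constitutively active kinases, and Map3k8, the kinase TPL-2 upstream of ERK, rose by log2 differences of 2.28, 2.15 and 1.47, 3 of 24 genes in the list of feedback kinases and ubiquitin ligases.

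Ptgs2, encoding the inducible cyclooxygenase COX-2, rose from 17.1 and 37.4 to 515, 636 and 442 (4.32 ± 0.56, adjusted p = 0.00354). It was the only one of 16 prostaglandin and leukotriene genes to pass, and the median of that list was 0.03. Ptgs1, the constitutive isoform, had 329 and 285 against 364, 343 and 114, so that replicate 6 alone was low. Pla2g4a, the phospholipase A2 that releases arachidonic acid and that responds to nuclear membrane stretch, overlapped between groups (287 and 292 against 289, 326 and 356).

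Surface receptors of activation changed in part. Cd69, an early activation antigen, rose from 1.9 and 6.72 to 49.3, 61 and 63.5, Tlr2, the receptor of bacterial lipoproteins, from 223 and 328 to 1582, 1635 and 1732, and Cd83 from 432 and 695 to 2730, 3488 and 2411. These were 3 of 27 tested. Icam1, an adhesion molecule for leukocytes, had 927 and 1019 against 2054, 2397 and 3090 without passing (adjusted p = 0.223, and 0.00102 with wild-type libraries alone), and Tlr4 did not pass (1895 and 1627 against 1578, 1486 and 1505). Of 36 chemoattractant, lipid and nucleotide receptors, 2 rose. These were Cxcr4, the receptor of Cxcl12, from 669 and 1108 to 3149, 3774 and 2847, and the atypical chemerin receptor Ccrl2 from 255 and 219 to 1726, 2161 and 1232. The S1P receptor S1pr2 was lower in all 3 confined libraries (2078 and 2200 against 1377, 1510 and 1431, adjusted p = 0.124).

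**Figure D2:**
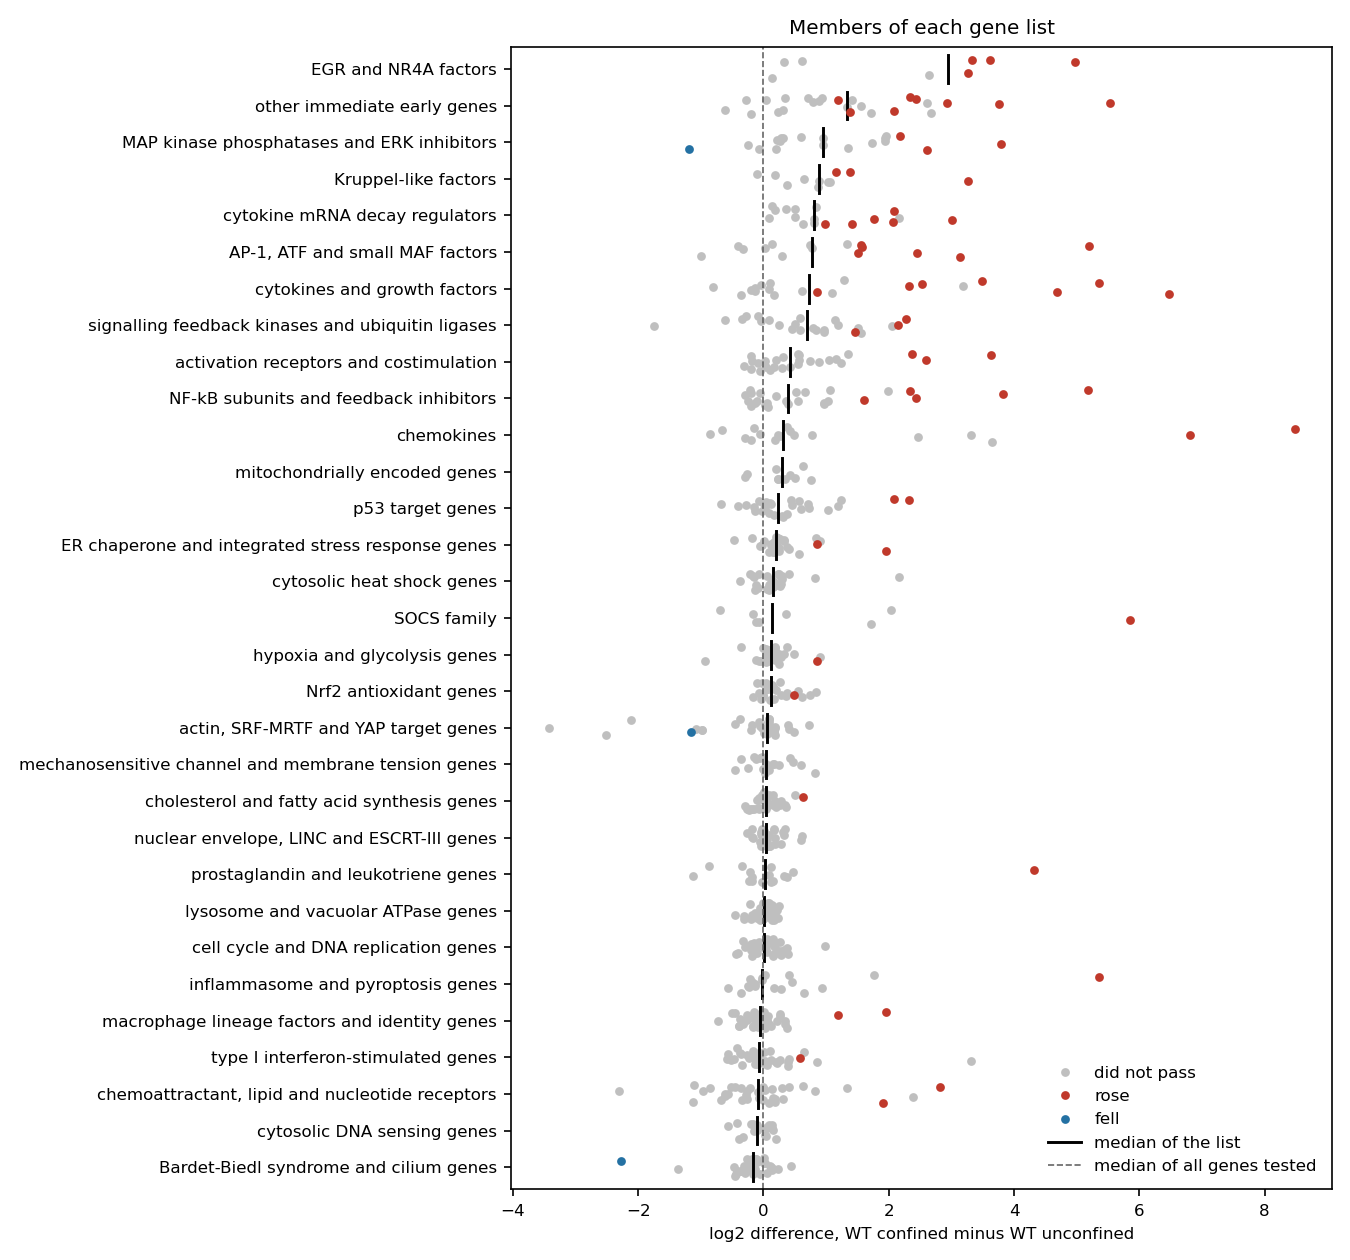
Log2 difference (confined minus unconfined wild-type) of every tested member of the gene lists, 1 point per gene (the 3 large lists of Zfp, ribosomal protein and nuclear-encoded respiratory chain genes and the lists made after the values were seen are not drawn), ordered by the median of the list (black bar); red points rose, blue points fell and grey points did not pass, and the dashed line is the median of all genes tested. The EGR and NR4A list has the highest median, 2.95, and the nuclear envelope list, at 0.04, lies near the dashed line; points are spread vertically to avoid overlap.

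Lists tied to the nuclear envelope, to cytosolic DNA and to mechanical force are described next. Only 1.18% of all tested genes passed, so lists of this size can lack a call without differing from other genes. None of 33 nuclear envelope, LINC complex and ESCRT-III genes passed (limma), and their median was 0.04. Lmna, the gene of lamins A and C, had 4198 and 4585 against 6062, 5737 and 8711 (0.61 ± 0.18, adjusted p = 0.161), and Syne3, encoding the nesprin-3 protein of the LINC complex, had the smallest p of the list (604 and 456 against 690, 790 and 939, adjusted p = 0.127). Chmp7, which recruits ESCRT-III to the nuclear envelope, had 1054 and 1083 against 1122, 1039 and 1078. Among 22 DNA sensing genes none passed and the median was -0.10. Ikbke, a kinase upstream of interferon factors, had the smallest p there (2197 and 1776 against 1564, 1559 and 1304, adjusted p = 0.265). Cgas, the sensor of cytosolic DNA, had 288 and 216 against 268, 195 and 336, and Sting1 559.5 and 459 against 477, 438 and 470.0. Of 40 interferon-stimulated genes 1 rose (2.5%, against 0.909% of all tested genes), and the median was -0.07. It was the ubiquitin ligase gene Trim25 (5066 and 4196 against 7018, 6636 and 7128, 0.59 ± 0.12). Rsad2, a classical target, had 481 and 346 against 805, 649 and 500.5 (adjusted p = 0.23).

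Il1b was the only 1 of 21 inflammasome genes to rise. Nlrp3, the inflammasome sensor that needs transcriptional priming, stood at 745 and 785 and then 2342, 2602 and 2925, without overlap, but passed only with wild-type libraries alone (1.77 ± 0.43, adjusted p = 0.0879 and 2.79e-05). Casp1, which cuts the interleukin-1β precursor, had 1073 and 1091 against 1082, 1086 and 1126. Gsdmd, the pore-forming protein, was at 896 and 1058 against 824, 807 and 937.

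Of 34 targets of actin, SRF-MRTF and YAP signalling, 1 fell (2.94%, against 0.27% of all tested genes) and none rose, with a median of 0.06. The one that fell was Axl (chromosome 7, 25757273 to 25788705), a receptor tyrosine kinase for the uptake of dying cells, with 1136 and 1655 against 637, 581 and 631 (-1.15 ± 0.17, adjusted p = 0.00591). Srf had 787 and 861 against 728, 673 and 761. The YAP targets Ccn1 (56 and 51.8 against 11.8, 9.38 and 5.62) and Ccn2 (95.9 and 159 against 2.14, 17.6 and 25.7) were lower without passing (adjusted p = 0.109 and 0.0592). Markers of stromal cells, in which both are abundant, were lower too: the 12 markers summed to 997 and 1912 in unconfined and 318, 231 and 870.0 in confined libraries, with 0 of the 8 tested passing and Lum at 0 in all 5. Their part in these values was not tested. Actb was higher in all confined libraries, 101460 and 102712 against 131204, 129736 and 139407, with adjusted p = 0.278, and 0.0436 with wild-type libraries alone. None of 19 genes of mechanosensitive channels and membrane tension passed; Piezo1, the stretch-gated cation channel, had 8685 and 7297 against 9629, 9142 and 9736 (adjusted p = 0.381).

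On the stress lists 0 to 2 genes rose and none fell, and stress genes outside these lists were not counted. The shares that rose were 7.14% of p53 targets and 6.67% of endoplasmic reticulum and integrated stress genes. They were 3.57% of Nrf2 targets and 3.1% of hypoxia and glycolysis genes, against 0.909% of all tested genes. Each of these shares rests on 1 or 2 genes. No heat shock gene of 28 passed, and Hspa1a, the inducible HSP70 gene, came nearest with 26.6 and 15.4 against 77.1, 89.2 and 121 (2.16 ± 0.49, adjusted p = 0.0653, and 0.00798 with wild-type libraries alone). Of 30 endoplasmic reticulum and integrated stress genes, Cebpb and Vegfa rose; Cebpb, a factor of macrophage activation, had 552 and 1526 against 3552, 3970 and 3165. Ppp1r15a, encoding the GADD34 phosphatase subunit, rose from 288 and 199.6 to 946, 1310 and 1752, but Ddit3, encoding CHOP, did not (108 and 121 against 96.4, 142 and 149). Hmox1, the haem oxygenase gene, rose from 9833 and 9193 to 12507, 13522 and 14245, the smallest rise that passed and the only one among 28 Nrf2 targets. Insig1, a brake on cholesterol synthesis, was the only one of 30 lipid synthesis genes, from 2416 and 2241 to 3362, 3640 and 3798. Of 28 p53 targets 2 rose (Gdf15 and Btg2) and of 32 hypoxia and glycolysis genes 1 (Vegfa).

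Several large housekeeping lists had no member that passed in the fit to all 10 libraries. None of 93 ribosomal protein genes did (median 0.01), none of 78 nuclear-encoded respiratory chain genes (0.04), none of 41 lysosomal genes (0.01), none of 36 cell cycle genes (0.00) and none of 10 mitochondrially encoded genes (0.29). Their members with the smallest p were Rps4l (36.1 and 66.2 against 23.6, 36.4 and 16.9), Uqcrb (362 and 380.0 against 411, 462 and 589), the lysosomal regulator Tfeb (716 and 895 against 546, 698 and 518), Cdk6 (3446 and 2387 against 6020, 5334 and 5619) and ND1 (14910 and 12848 against 16759, 29810 and 20014). Over the 9 lists with no call, 1 to 5 members had an unadjusted p under 0.05. With wild-type libraries alone, limma called 1 cell cycle gene (Cdk6, 0.98 ± 0.25, adjusted p = 0.0996 with all libraries and 0.00397 with wild-type ones) and 1 heat shock gene, and none on the other 7 lists. edgeR called none in any of the 9, and DESeq2 called 1 heat shock, 2 nuclear envelope and 1 cell cycle gene. Among 39 lineage and identity genes Cebpb and Id2 rose, and Spi1, encoding PU.1, had 3528 and 4323 against 3588, 3806 and 3887. Of 314 zinc-finger genes named Zfp, 213 were lower and 101 higher, with a median of -0.18. In that list 3 rose (0.955%) and 1 fell (0.318%), shares near those over all genes (0.909% and 0.27%). Zfp655, Zfp667 and Zfp367 were the risen ones (Zfp36 is counted with the mRNA decay regulators), and Zfp467, lower by a log2 difference of -0.98, was the fallen one.

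A number of risen genes outside the first lists were singled out after their values were seen. Irf1, an interferon regulatory factor, went from 491 and 547 to 3626, 5464 and 4414 (3.10 ± 0.34, adjusted p = 0.00171). Pde4b, a phosphodiesterase that degrades cyclic AMP, rose from 106 and 98.8 to 1438, 1435 and 1025, and Kdm6b, the H3K27 demethylase JMJD3, from 239 and 348 to 1682, 2162 and 2425. Clec4e, the receptor Mincle, rose from 79.8 and 80.6 to 658, 973 and 775. Mir155hg, the precursor transcript of miR-155, was 0 in both unconfined libraries and 26.8, 43.4 and 78.7 in confined ones. Among 16 clock genes 3 rose, Nr1d1 (67.4 and 126 against 416, 477 and 496), Per1 and Bhlhe40. The last 2 are also immediate early genes of the list above.

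Several fallen genes encode proteins of RNA processing or of the nucleus. They were gathered with SR protein, CLK kinase and nuclear speckle genes in a list of 43 tested genes drawn up after the calls were known, so that its 7 fallen genes follow from how it was made and nothing is read from their share (0.27% of all tested genes fell). Ogt (chromosome X, 101640060 to 101684351), the O-GlcNAc transferase, whose own transcript is controlled through intron retention, went from 5606 and 5290 to 2752, 3034 and 2529 (-0.98 ± 0.14, adjusted p = 0.00514). Rsrp1, an arginine- and serine-rich protein gene, fell from 6254 and 7355 to 2932, 3666 and 3731 (-0.99 ± 0.12, adjusted p = 0.00282). All 3 confined libraries of both genes lay well under the lower unconfined one. Snrnp48, of the minor spliceosome, fell from 409 and 439.5 to 134, 222 and 225, Ttc14 from 1016 and 979 to 380.3, 539.6 and 475, and Zfc3h1, of the nuclear exosome targeting complex, from 1558 and 1555 to 871, 862 and 933. Rbm5 (1822 and 1621 against 1027, 1096 and 1025) and the cyclin L gene Ccnl2 (1622 and 1482 against 936, 1037 and 969) completed the 7. The core SR protein genes did not pass, for example Srsf1 (2995 and 3169 against 2886, 2988 and 2994) and Srsf3 (2446 and 2362 against 2605, 2367 and 2645). Oga, the enzyme that opposes Ogt, had 2759 and 2619 against 3006, 3047 and 2780, and Clk1, another gene with retained introns, 893 and 1074 against 1178, 1387 and 1438.

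**Figure D3:**
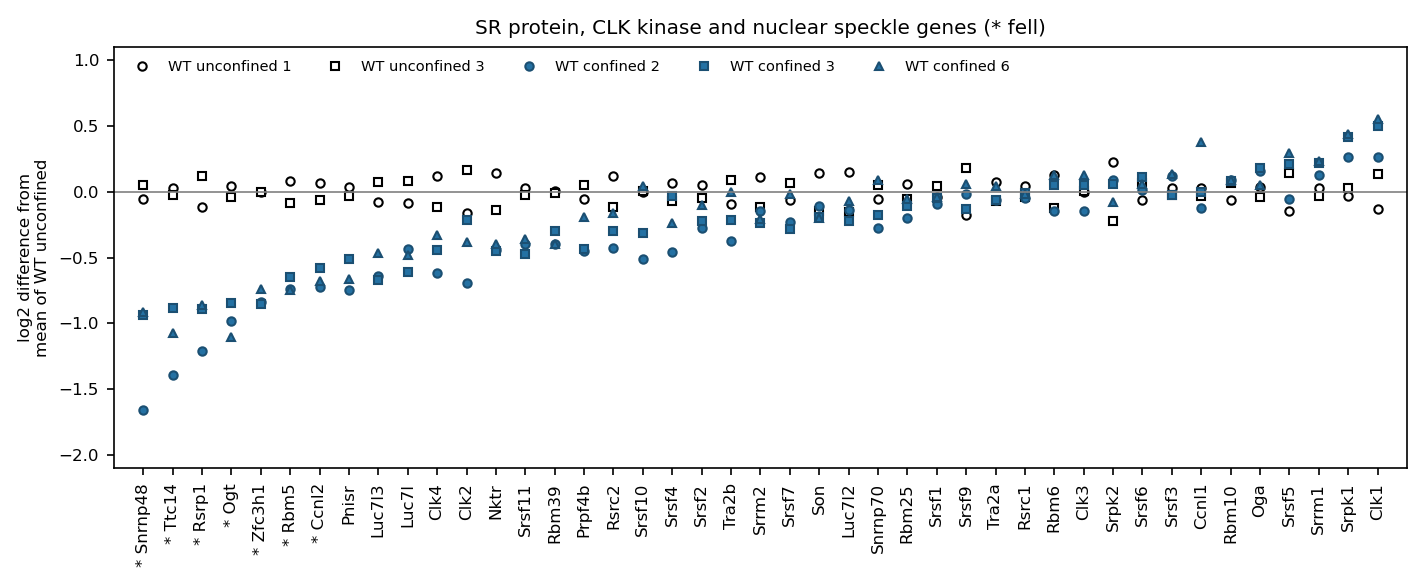
Log2 difference of each wild-type library from the mean of the unconfined libraries, for the tested genes of the SR protein, CLK kinase and nuclear speckle list, ordered by the fitted difference; open symbols are unconfined and filled symbols confined libraries, and a star marks the 7 genes that fell. On the left the 3 confined libraries lie together below 0, with replicate 2 lowest for Snrnp48 (134 against 409 and 439.5), and on the right Clk1 lies above 0.

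The remaining fallen genes shared no list. Bbs10 (chromosome 10, 111298679 to 111301727), a chaperonin-like gene of Bardet-Biedl syndrome, had 159 and 123 against 35.4, 34 and 18.5 (-2.27 ± 0.39, adjusted p = 0.0157). It was the only one of 32 cilium genes to pass. Abi3, an adaptor of the actin-regulating WAVE complex, fell from 219 and 511.5 to 104, 116 and 143, and its unconfined libraries lay far apart. Irgm2, an interferon-inducible GTPase gene, fell from 401 and 394 to 183, 239 and 165. Mtcp1 (149 and 133 against 64.3, 32.8 and 38.6), Ccdc28b (108 and 98.8 against 38.6, 42.2 and 41), Fam193b (671 and 599.8 against 326, 325 and 249) and the unnamed identifier ENSMUSG00000121184 (410.4 and 225 against 99.6, 79.8 and 115) were lower in each confined library. F630028O10Rik, annotated as an antisense gene, fell from 309 and 332 to 93.2, 134 and 94.8. For it, Abi3, Ccdc28b, Irgm2, Mtcp1 and Ttc14, exons overlap those of another gene, and the use of strand in counting is not given in the sources used here, so their reads may belong in part to the neighbour. This holds for 10 of the 33 fallen and 30 of the 111 risen genes, Il1b, Tnfsf9, Junb, Dusp1 and Zfp36 included.

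Prg2 and Cd79b, both fallen, mark other blood cells and were singled out after their values were seen. Prg2, the major basic protein gene of eosinophils, was 24.7 and 26.9 in unconfined libraries and 0 in all 3 confined ones (adjusted p = 0.00615). Its mean over the 5 wild-type libraries was 10.3, just above the filter of 10, so it was tested only because of its unconfined values. The adjusted p of Prg2 is therefore not read as support for a fall. The eosinophil genes Epx and Il5ra were at or under 8.64 in unconfined and at 0 in confined libraries, whereas Siglecf overlapped (109 and 97.9 against 131, 106 and 24.1). Cd79b, of the B-cell receptor, had 58.9 and 85.4 against 27.9, 17.6 and 16.9, while the 10 B-lineage markers summed to 3614 and 3417 against 3377, 3267 and 2938. Markers of neutrophils and their precursors summed to 9002 and 12432 against 7894, 9902 and 3155, with 0 of 12 passing and replicate 6 lowest. The 6 dendritic cell markers summed to 65.5 and 63.3 against 45.0, 32.8 and 15.3, and the 5 megakaryocyte markers to 109 and 352 against 63.2, 80.9 and 99.6, both lower in every confined library with none passing. The 5 mast cell and basophil markers overlapped (23.7 and 65.3 against 20.4, 29.3 and 22.5). T and NK cell markers were at 0 in all 5 libraries for 5 of 7. Erythroid markers were at most 8.64 in unconfined libraries and reached 166 in confined replicate 6, which was also highest for Tnf, Cxcl1 and Cxcl2. The part of other cells in the results was not tested.

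The called genes also differed in build from the average. Risen genes spanned a median of 12890 bp from first to last base and fallen ones 15391 bp, against 22303 bp for all tested genes. Genes under 10 kb made up 42.3% of the risen, 37.5% of the fallen and 26.8% of all. The median transcript was nearly as long in each, 3378, 3593 and 3323 bases. Risen genes had a median of 5 exons against 7 in all, and a GC content of 50.9% against 49.3%, while fallen genes had 47.2%. These values describe gene models and were not tested.

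In cells without WASp the same comparison gave 184 genes higher (1.51%) and 29 lower (0.237%). All 111 risen and all 33 fallen genes had the same direction there, and 90 and 6 of them passed. Their median log2 differences were 1.86 in wild-type and 1.76 in WKO cells for the risen genes, and -0.98 and -0.56 for the fallen ones, a comparison of genes chosen by their wild-type value. Control samples were not shared between the genotypes. The test of the difference between genotypes, an interaction term in limma, called 0 of 12213 genes (0%), with 251 at an unadjusted p under 0.05 and a smallest adjusted p of 0.999534. Cxcl1 had a log2 difference of 5.77 in WKO cells against 8.48 (interaction adjusted p = 0.999534), and its unconfined WKO libraries stood at 12.8 and 35.1. Axl, at -1.15 in wild-type, was -0.49 in WKO cells. A p that misses the threshold does not show that the genotypes respond alike.

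**Figure D4:**
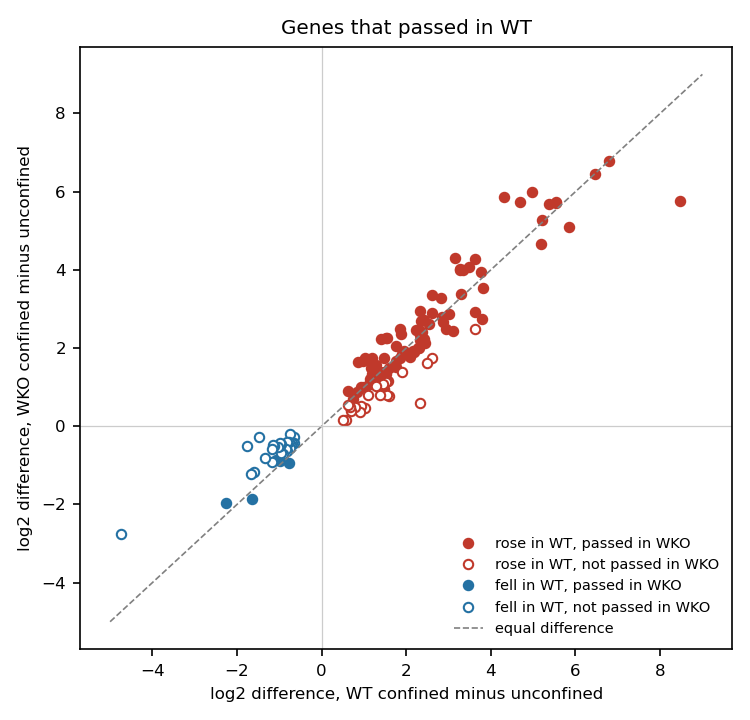
Log2 difference between confined and unconfined cells in wild-type (horizontal axis) and WKO macrophages (vertical axis) for the 144 genes that passed in wild-type cells; red genes rose, blue genes fell, filled points also passed in WKO cells, and the dashed line marks equal differences. The points lie near the dashed line on the right, Cxcl1 lies below it at 8.48 and 5.77, and most fallen genes lie above it; the point farthest left is Prg2, at 0 in all confined wild-type libraries, whose fitted difference depends on the pseudocount.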

How the data were processed

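Polyadenylated RNA of 10 libraries was sequenced, 3 wild-type confined, 2 wild-type unconfined, 3 WKO confined and 2 WKO unconfined, grouped by the genotype and treatment labels. Per the labels' protocols, the WATCHMAKER mRNA kit was used on 5 ng of RNA. FastQC, Trim Galore, STAR and the builds GRCm38 and mm10 are named per the submitters' processing notes; how reads were counted, and with which annotation and strand setting, is not given in the sources used here. The deposited table holds a signal for 57010 identifiers in each library, read counts that the authors had normalized. In each library 100% of values were whole multiples of 1 read (tolerance 0.001), and DESeq2 1.42.0 size factors recomputed on those reads differed from the deposited scaling by at most 2.22e-16. Scaling by 1 factor removes depth but not composition, GC or length effects, and PCR reads are not independent molecules, so the 3-read floor covers counting error only.

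The main test was limma 3.58.1 (R 4.3.3) on log2(value + 1), with 1 mean per group over all 10 libraries (6 residual degrees of freedom), a mean-variance trend and Benjamini-Hochberg adjustment over the 12213 genes with a mean of at least 10 in the 5 wild-type libraries. The shared fit was used because 2 libraries say little about spread; the fit to the 5 wild-type libraries alone was an alternative. Others were edgeR 4.0.16 and DESeq2 on whole reads, other scalings, pseudocounts, filters, array weights, a replicate block, and each library left out in turn. The scripts were tested on simulated data. Symbols came from the table (33149 identifiers) or GENCODE M21 (20029), and 3832 had none.

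The comparison, gene lists and tests were chosen with earlier results of these data known. Named genes are the 12 largest rises and 12 largest falls among genes that passed, had a mean of 50 or more and separated the groups; up to 4 passing members of each list with the smallest p (or, with none, the 1 nearest to passing); and list members given to describe a list. 4 lists (splicing and speckle, eosinophil, clock, IRF and GTPase genes) and the promoters shown were chosen after the values were seen. RefSeq promoter windows were used for genes with 1 window only.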

Additional observations from a re-analysis of the deposited data

How the results depend on the processing

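Direction was stable: all 144 genes kept their sign in every setting in which they were tested, and all 144 were tested except with a mean of at least 50, where 139 were. The number of calls was not. It was 144 (111 higher, 33 lower) and became 513 (393 and 120) with only the 5 wild-type libraries, 423 (302 and 121) with array weights, 339 (213 and 126) with DESeq2 and 18 (15 and 3) without the mean-variance trend. edgeR's quasi-likelihood test gave 119, and 495 (349 and 146) on the 5 wild-type libraries, a setting added after the data were seen. Leaving out 1 library in turn gave 22 to 400 calls, 18 to 291 higher and 0 to 109 lower. TMM and upper-quartile scaling gave 152 and 147, pseudocounts of 0.25 and 5 both 144, no filter 112 and a mean of at least 50 148. With the replicate block over all 10 libraries 203 genes passed (157 and 46), 100 of them among the 144; no label ties equal numbers to a shared animal or day, and within wild-type cells only number 3 is shared. Of 1700 values of named genes under alternatives, 1377 kept their call, 308 lost it, 15 gained it and 0 reversed. The cause was not tested. Depth limits genes near 3 reads, such as Il6 and Csf2, and 2 unconfined libraries limit every estimate of spread.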
